A study of Mus musculus with 6 samples.

Results

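The 31 genes described here encode the enzymes that build cholesterol and fatty acids and the proteins that control both pathways. They were chosen by name from the known pathways, and all 31 were found by gene symbol among the 54146 gene rows of the deposited expression table. They comprise 5 regulators of the SREBP transcription factors, 18 enzymes of cholesterol synthesis, the sterol carrier Stard4 and 7 genes of fatty acid synthesis. All 31 passed the filter on low values, a TPM (transcript abundance corrected for length and scaled to the same total in every library) of at least 1 in at least 3 libraries, and so were among the 12301 genes tested.

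Expression was measured by RNAseq in D2A1, a mouse mammary tumor cell line, grown as spheroids in 3D Matrigel, a basement membrane gel, with DMEM and 10% fetal bovine serum. A set of 3 libraries came from cells given 50 nM recombinant SLURP1 (rSLURP1), a secreted protein of the Ly6 family, and another 3 from cells given 50 nM recombinant glutathione S-transferase (rGST), the control protein. All 6 libraries carry the same label for genotype, control, and the study's methods place the harvest of treated spheroids on day 5. The comparison asks which genes differ between control and SLURP1-treated cells in culture. The labels do not say whether the 3 libraries of a treatment came from separate cultures, so p-values measure only the spread between these libraries, which may be technical. In such bulk samples, fewer cells of a type and less RNA per cell cannot be told apart.

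Cells keep their sterol content steady through SREBPs, transcription factors held in the endoplasmic reticulum by Scap and the Insig proteins. When sterols run low, Scap carries SREBP to the Golgi, where proteases release its active part, which enters the nucleus and switches on the genes of lipid synthesis. Srebf2 encodes the form that acts mainly on cholesterol genes, and Srebf1 encodes the forms that act mainly on fatty acid genes in many tissues, among them lipid-making mammary epithelium.

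The label of a mammary tumor cell was checked against marker genes. Of 6 epithelial markers, Krt18 was high, between 191 and 199 TPM in all 6 libraries, whereas Epcam was listed at 0 in every library and Cdh1 reached at most 0.07 TPM. Krt8 was low, at 1.4 to 1.66 TPM with rGST and 0.51 to 0.81 TPM with rSLURP1. The summed TPM of the epithelial list was 194 to 201 with rGST and 198 to 201 with rSLURP1. The fibroblast list, which many mesenchymal tumor lines also express, summed to 1007 to 1138 with rGST and 75.2 to 85.1 with rSLURP1, and Dcn, Pdgfra and Pdgfrb were lower. Lum and Col1a1 passed the filter only through rGST, and Col1a2 was under 1 TPM. The adipocyte list summed to 19.5 to 26.7 with rGST and 64.0 to 69.4 with rSLURP1, with Fabp4, Pparg and Lipe higher, Plin1 not called, Lep at 0 and Adipoq at or near 0. The immune list summed to 3.63 to 4.12 with rGST and 7.75 to 10.7 with rSLURP1, nearly all of it Cd68, and the summed TPM of the 4 endothelial genes was at most 0.31. The part of these markers in the lipid gene results was not tested.

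The deposited TPM carry no read depth, and the counting error of a value is therefore unknown. Between 12390 and 12449 genes reached 1 TPM with rGST and between 11906 and 11981 with rSLURP1. Mitochondrial transcripts held 11.03% to 12.2% of the total under rGST and 12.5% to 14.3% under rSLURP1, and with these genes left out 23 members were lower and 5 higher, against 23 and 4 with them. Each gene's log2(TPM + 1) was tested with limma, a scale that understates the change of low genes, with Benjamini-Hochberg adjustment over all 12301 genes, and an adjusted p of 0.05 or less counted as a call. The median log2 fold change (rSLURP1 over rGST) of all genes tested was -0.33, so most genes were lower in TPM with rSLURP1, and a gene's change is therefore also given after median-ratio scaling, which brings that median to about 0.

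Most of the 31 genes were lower with rSLURP1, as were most genes of the transcriptome. In limma, 23 members were lower and 4 higher, and 4 did not pass. With rGST library 2, rSLURP1 library 1 or rSLURP1 library 2 left out, 2 were higher. Of all genes tested, 58.5% were lower and 8.66% higher by the same rule. With median-ratio scaling, 12 members were lower and 6 higher, against 25.2% and 26.0% of all genes. The members' median log2 fold change was -0.39 as deposited and -0.037 after that scaling. A decrease of at least 2-fold was called in 2 members, Srebf1 and Cyp51, against 7.06% of all genes tested. The 3 libraries of each treatment did not overlap for 26 members, 23 of them lower and 3 higher with rSLURP1, against 61.7% and 9.75% of all genes. The lower members were thus 74.2% of the 31 as deposited and 38.7% with median-ratio scaling, and the higher members 12.9% and 19.4%, and whether these shares differ from those of all genes was not tested. Among the members, 10 genes were called lower and 4 higher under each of 4 scalings (as deposited, median-ratio, quantile normalization, and a length and GC correction), against 18.8% and 8.03% of the genes for which all 4 could be had. Quantile normalization gave 13 lower and 6 higher members, against 23.6% and 25.3% of all genes, and the length and GC correction 10 and 7, against 21.9% and 27.0%.

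**Figure D1:**
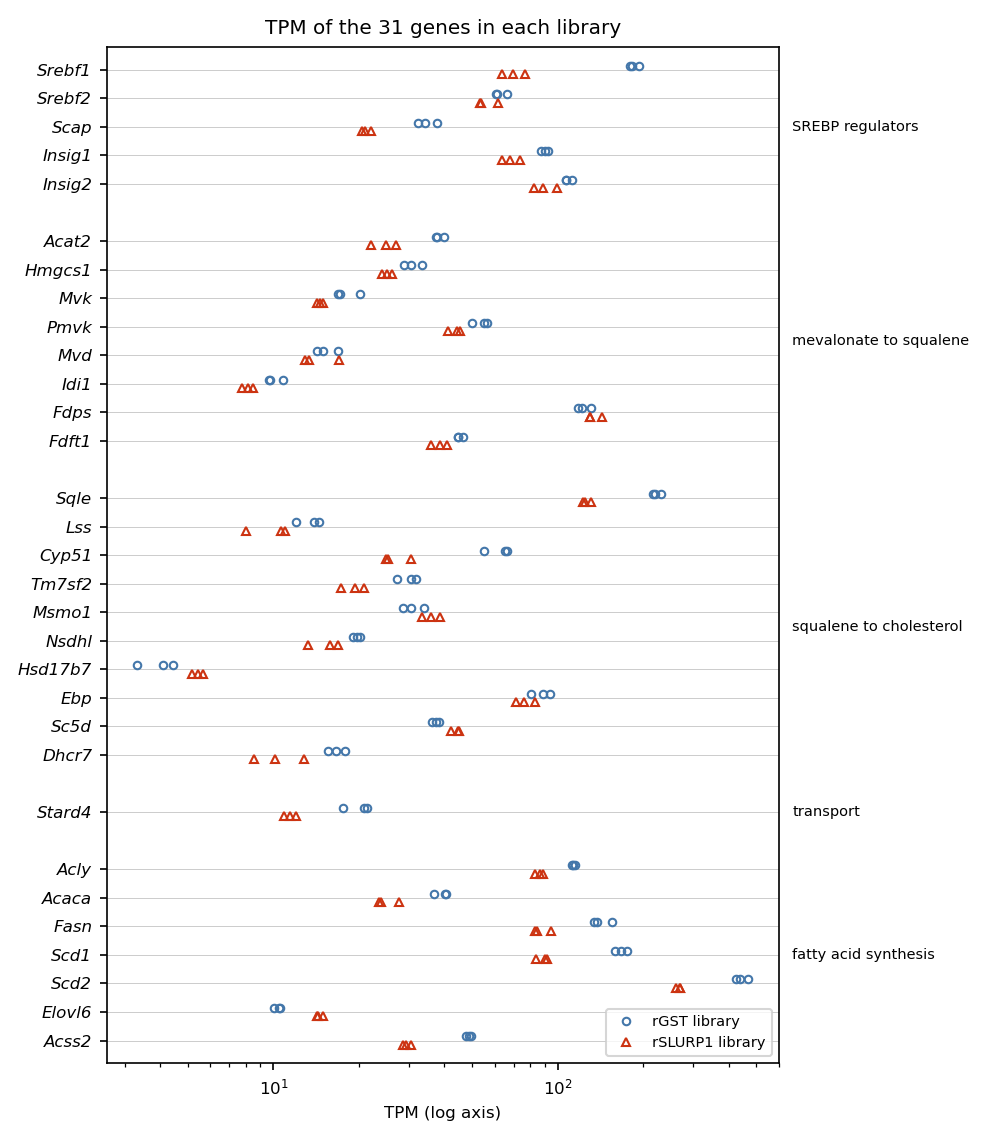
TPM of each of the 31 genes in the 3 rGST libraries (circles) and the 3 rSLURP1 libraries (triangles), on a log axis and in pathway order. The Srebf1 libraries lie furthest apart, with 180 to 193 TPM under rGST and 63.7 to 76.7 TPM under rSLURP1, and Elovl6, Sc5d and Hsd17b7 are the genes whose rSLURP1 libraries all lie above the rGST libraries.

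The levels spanned a wide range. With rGST, Scd2 was the highest member at a mean of 445 TPM, followed by Sqle at 223 TPM, Srebf1 at 185 TPM, Scd1 at 168 TPM and Fasn at 142 TPM, and Hsd17b7 was the lowest at 3.95 TPM. With rSLURP1, Scd2 at 267 TPM still led, but Fdps at 134 TPM and Sqle at 127 TPM came next, and their libraries overlapped, with 130 to 143 TPM for Fdps and 123 to 131 TPM for Sqle. Insig2, Scd1, Fasn, Acly and Ebp followed, with means from 90.2 down to 76.9 TPM. Srebf1 stood below these at 70.0 TPM, next to Insig1 at 68.6 TPM, also with overlapping libraries. Across the 31 genes, the Spearman correlation between the rGST level and the log2 fold change was -0.44. The same rGST values enter both quantities, and the correlation was not computed over all genes. It is therefore not read as a trait of this set. These are genes of the same 6 libraries and not independent replicates.

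The DNA just before the transcript starts was read for the motifs of SREBP and its partner factors. RefSeq promoters on GRCm38.p6 were matched for 25 members with 33 starts (the others are Fdft1, Fdps, Scd1, Scd2, Sqle and Stard4), and the 250 bases before each start were searched on both strands for 4 motifs. These were the SREBP site TCACNCCAC, where N is any base, the E-box CACGTG, which SREBP-1 can also bind, and the boxes of the partners, CCAAT for NF-Y and GGGCGG for Sp1. The promoters shown were picked for role from the 13 of 33 windows that hold no exon base in GENCODE M21, as a sterol enzyme with the SREBP site (Hmgcs1), a sterol enzyme that was higher with rSLURP1 (Sc5d), the main fatty acid enzyme (Fasn) and the regulator that was lowest relative to its control (Srebf1). Each line runs 5′ to 3′ on the gene's own strand and ends at the base before the start, and capitals mark the SREBP site, the E-box and the NF-Y box on either strand (the last reads ATTGG on the other strand).
Hmgcs1 (chr13:119690101-119690350, plus strand): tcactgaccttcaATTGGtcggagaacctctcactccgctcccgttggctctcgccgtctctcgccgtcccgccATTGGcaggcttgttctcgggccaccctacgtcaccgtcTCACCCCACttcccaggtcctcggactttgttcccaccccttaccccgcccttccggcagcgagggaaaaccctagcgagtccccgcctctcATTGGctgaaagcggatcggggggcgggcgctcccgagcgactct
Sc5d (chr9:42264301-42264550, minus strand): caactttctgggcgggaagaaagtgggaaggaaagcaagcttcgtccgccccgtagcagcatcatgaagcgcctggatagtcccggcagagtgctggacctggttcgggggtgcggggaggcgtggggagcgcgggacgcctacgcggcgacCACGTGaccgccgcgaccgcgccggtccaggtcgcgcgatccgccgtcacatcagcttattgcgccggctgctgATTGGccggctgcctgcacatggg
Fasn (chr11:120824548-120824797, minus strand): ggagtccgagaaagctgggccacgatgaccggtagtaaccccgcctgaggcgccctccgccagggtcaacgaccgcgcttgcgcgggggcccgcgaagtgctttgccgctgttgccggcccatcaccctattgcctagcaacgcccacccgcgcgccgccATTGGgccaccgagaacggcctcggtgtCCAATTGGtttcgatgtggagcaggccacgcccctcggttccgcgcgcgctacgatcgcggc
Srebf1, the most internal of its 3 listed starts (chr11:60210472-60210721, minus strand, within the gene but outside its annotated exons): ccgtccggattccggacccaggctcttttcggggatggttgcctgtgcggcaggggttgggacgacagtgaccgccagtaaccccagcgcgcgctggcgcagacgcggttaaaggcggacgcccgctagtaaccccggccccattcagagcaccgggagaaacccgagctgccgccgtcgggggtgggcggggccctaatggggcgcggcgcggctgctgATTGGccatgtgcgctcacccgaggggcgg

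Hmgcs1 alone among the 25 matched genes held the SREBP letters, 137 bases before its start, with NF-Y boxes on both sides. Those letters occurred before the starts of 1.24% of the tested genes in the table and 1.22% of all genes in it. Sc5d holds 1 E-box and 1 NF-Y box, Fasn 3 NF-Y boxes of which the last 2 share bases, and this Srebf1 start 1 NF-Y box 30 bases upstream. NF-Y boxes were found in 20 of the 25 genes (80.0%), against 41.4% of tested genes and 37.5% of all genes. They were found in 14 of 15 sterol enzymes (93.3%) and in 2 of 5 fatty acid genes (40%), Fasn and Acss2. The E-box was found in 5 of 25 genes (20.0%, against 10.2% of tested and 6.86% of all genes) and the Sp1 box in 21 of 25 (84.0%, against 66.8% of tested and 35.4% of all genes). CCAAT and GGGCGG are short and common before active genes, a match is not a bound site, and a window without a match says nothing about the factor. RefSeq and GENCODE M21 place some starts differently, and 20 of the 33 windows hold exon bases of a GENCODE transcript. For Hmgcs1, Sc5d and the printed Srebf1 start, the bases after the start were not found in a GENCODE transcript of the gene. For Fasn they were.

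**Figure D2:**
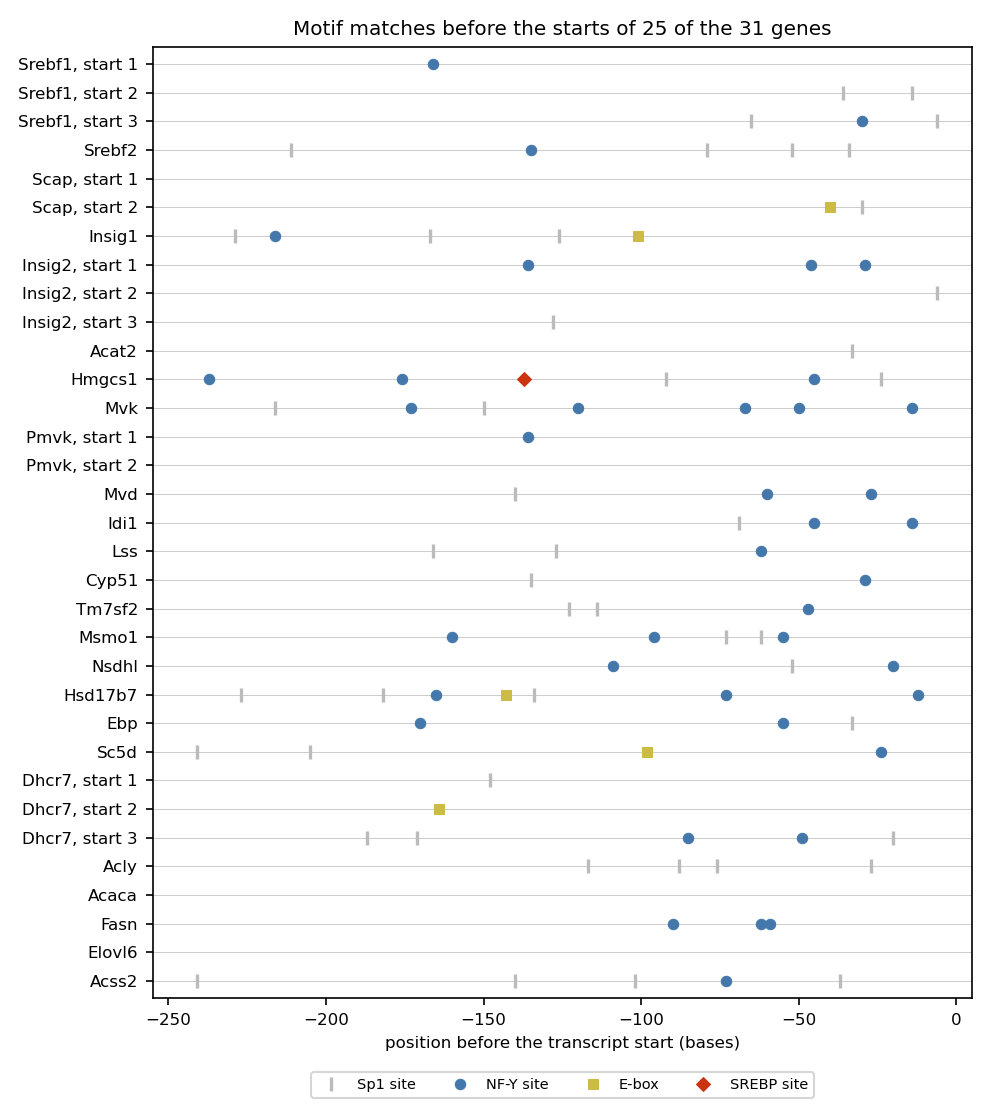
Positions of matches to the SREBP site, E-box, NF-Y box and Sp1 box in the 250 bases before 33 RefSeq starts of 25 genes, in pathway order, with the start at 0 on the right. NF-Y boxes (circles) appear before most sterol enzymes, and the single SREBP match (diamond) is before Hmgcs1.

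Of the 5 regulators, Srebf1 changed most. It measured 180, 193 and 182 TPM in the rGST libraries and 63.7, 69.7 and 76.7 TPM in the rSLURP1 libraries. Every rSLURP1 library was thus below every rGST library, at a mean of 37.8% of the control. The log2 fold change was -1.39 (SE 0.069, n = 3 per group, limma adjusted p = 4.11e-06), and -1.04 with median-ratio scaling (adjusted p = 2.09e-05). Srebf1 (chr11:60199089-60222581, minus strand, GRCm38) shares 109 exon bases with Rai1 on the other strand. The deposited values are per gene, so they do not separate transcripts from its 3 starts.

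Srebf2 did not follow Srebf1. It measured 60.8, 66.3 and 61.2 TPM with rGST and 53.1, 61.7 and 53.6 TPM with rSLURP1. The groups overlapped through rSLURP1 library 2, and the log2 fold change of -0.16 (SE 0.070) did not pass (limma adjusted p = 0.0747), though it did with the same library left out (-0.23). Its direction turned with the scaling, to 0.19 with median-ratio scaling (adjusted p = 0.0298). The ratio of Srebf1 to Srebf2 TPM within a library, which a factor applied to the whole library leaves as it is, was 2.91 to 2.98 with rGST and 1.13 to 1.43 with rSLURP1.

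Scap, the escort that carries SREBP out of the endoplasmic reticulum, measured 37.5, 34.2 and 32.2 TPM with rGST and 20.5, 21.03 and 22.1 TPM with rSLURP1. All rSLURP1 libraries were lower, with a log2 fold change of -0.68 (SE 0.070, limma adjusted p = 0.000112) and -0.34 with median-ratio scaling (adjusted p = 0.00566). The Insig proteins hold Scap back, and Insig1 is itself an SREBP target. Insig1 fell from 89.9 ± 2.5 to 68.6 ± 4.9 TPM (mean ± SD, n = 3 per group) and Insig2 from 109 ± 3.3 to 90.2 ± 8.8 TPM, with log2 fold changes of -0.39 and -0.27 (limma adjusted p = 0.000781 and 0.0101). Both calls were lost with median-ratio scaling, where Insig1 stood at -0.037 and Insig2 at 0.077. Of the 5 regulators, 4 were thus lower as deposited (80.0%, against 58.5% of all genes tested). Srebf1 and Scap were lower under all 4 scalings, as were 18.8% of the genes for which all 4 could be had.

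As a list, the 8 enzymes that carry acetyl-CoA to mevalonate and squalene changed little beyond the median gene. Single enzymes did more, with Acat2 at -0.29 and Fdps at 0.45 relative to that gene on the log2 scale. Of the 8 enzymes, 6 were lower (75.0%, against 58.5% of all genes tested) and 2 did not pass. Their median log2 fold change was -0.28 as deposited and 0.055 with median-ratio scaling. Acat2, which joins acetyl-CoA units at the entry to the pathway, was, alone among the 8, called lower under all 4 scalings. It measured 37.8, 39.8 and 37.2 TPM with rGST and 22.1, 27.1 and 24.99 TPM with rSLURP1. The groups did not overlap, and the log2 fold change was -0.61 (SE 0.078, limma adjusted p = 0.000328), or -0.27 with median-ratio scaling (adjusted p = 0.0136).

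The next enzymes were close to each other in size of change. Hmgcs1, which makes HMG-CoA, fell from 30.8 ± 2.4 to 25.1 ± 0.99 TPM, and the kinases Mvk and Pmvk, which phosphorylate mevalonate, fell from 18.1 ± 1.8 to 14.6 ± 0.37 TPM and from 53.8 ± 3.5 to 43.6 ± 2.3 TPM. Idi1, which isomerises the 5-carbon isoprene unit, fell from 10.1 ± 0.66 to 8.12 ± 0.38 TPM, and its call was lost without rGST library 1 or rSLURP1 library 1 (-0.23 and -0.25). These 4 genes had log2 fold changes of -0.28 to -0.30 (limma adjusted p between 0.00469 and 0.0182), close to the -0.33 of the median gene. With median-ratio scaling they stood between 0.037 and 0.060 with their sign turned and no call.

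Mvd, which decarboxylates mevalonate diphosphate, did not pass, with 16.9, 14.96 and 14.3 TPM under rGST and 12.9, 17.1 and 13.3 TPM under rSLURP1. Fdps, which makes farnesyl diphosphate at the branch point to sterols and to protein prenylation, measured 118, 131 and 121 TPM with rGST and 130, 143 and 130 TPM with rSLURP1. The groups overlapped through rGST library 2, and its log2 fold change of 0.12 (SE 0.059) did not pass as deposited (limma adjusted p = 0.0962) but did with median-ratio scaling (0.48, adjusted p = 0.000192). Fdft1, squalene synthase, which follows Fdps in the sterol branch, fell from 45.2 ± 1.1 to 38.4 ± 2.4 TPM (log2 fold change -0.23, limma adjusted p = 0.00941). With median-ratio scaling it stood at 0.11 with no call. After the length and GC correction it was called in the other direction, as higher (0.19, limma adjusted p = 0.0225). Fdft1 shares 774 exon bases with Ctsb on the other strand, a gene at 905 TPM with rGST and 727 TPM with rSLURP1, and the strand setting of the quantification is not given in the sources used here, so reads of the pair may not have been told apart.

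The 10 enzymes from squalene to cholesterol moved in both directions. Of these, 6 were lower and 3 higher, and Ebp did not pass. Sqle, Cyp51 and Tm7sf2 were lower, and Msmo1, Hsd17b7 and Sc5d higher, under all 4 scalings. Sqle, squalene epoxidase, a rate-limiting oxygenase of the pathway, measured 221, 231 and 217 TPM with rGST and 125, 131 and 123 TPM with rSLURP1. The libraries of each group lay close together and far from the other group, and the log2 fold change was -0.81 (SE 0.042, limma adjusted p = 4.81e-06), or -0.46 with median-ratio scaling (adjusted p = 4.53e-05).

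Cyp51, the cytochrome P450 that removes the 14-alpha methyl group of lanosterol, was lower by the most among the enzymes. It measured 65.3, 66.1 and 55.1 TPM with rGST and 25.2, 30.5 and 24.97 TPM with rSLURP1. Every rSLURP1 library was far below the lowest rGST library, with a mean of 43.2% of the control and a log2 fold change of -1.18 (SE 0.0996, limma adjusted p = 4.34e-05), or -0.84 with median-ratio scaling (adjusted p = 0.000261). Cyp51 (chr5:4081145-4104746, minus strand) shares 166 exon bases with Akap9 on the other strand, which averaged 30.0 TPM with rGST and 17.3 TPM with rSLURP1. Tm7sf2, a sterol reductase that acts next to Cyp51, measured 27.3, 31.9 and 30.4 TPM with rGST and 17.2, 20.8 and 19.4 TPM with rSLURP1. The groups did not overlap, with a log2 fold change of -0.62 (SE 0.088, limma adjusted p = 0.000578), or -0.28 with median-ratio scaling (adjusted p = 0.0233). Tm7sf2 shares 532 exon bases with Vps51 on the same strand.

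Of the enzymes that demethylate the sterol further after the step of Cyp51, Msmo1 and Hsd17b7 were higher as deposited and Nsdhl was lower. Msmo1, the methyl oxidase of this step, measured 28.6, 30.6 and 33.8 TPM with rGST and 35.8, 38.7 and 33.4 TPM with rSLURP1. The groups overlapped through rGST library 3 and rSLURP1 library 3, and the call was marginal as deposited (log2 fold change 0.21, SE 0.080, limma adjusted p = 0.0494). It was lost without rGST library 1 (0.15) or 2 (0.20) and without rSLURP1 library 1 (0.21) or 2 (0.16), whereas with median-ratio scaling it stood at 0.55 (adjusted p = 0.000677). Hsd17b7, the ketone reductase of the same complex, was low, with 4.42, 3.32 and 4.10 TPM under rGST and 5.67, 5.44 and 5.15 TPM under rSLURP1. The groups did not overlap (log2 fold change 0.38, SE 0.12, limma adjusted p = 0.0214), but the call was lost without rGST library 2 (0.29) or rSLURP1 library 1 (0.35) or 2 (0.38), while with median-ratio scaling it stood at 0.67 (adjusted p = 0.00242). Nsdhl, the dehydrogenase that acts between these enzymes, fell from 19.6 ± 0.57 to 15.3 ± 1.8 TPM (log2 fold change -0.34, limma adjusted p = 0.0115), and stood at -0.0097 with no call after median-ratio scaling.

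Sc5d, the desaturase shown above with its promoter, was the clearest increase among the sterol enzymes. It measured 37.4, 38.3 and 36.3 TPM with rGST and 45.1, 42.1 and 44.7 TPM with rSLURP1. All rSLURP1 libraries were higher, with a log2 fold change of 0.23 (SE 0.051, limma adjusted p = 0.005), or 0.58 with median-ratio scaling (adjusted p = 0.00014). Dhcr7, which makes cholesterol from 7-dehydrocholesterol, the product of Sc5d, measured 17.8, 15.6 and 16.6 TPM with rGST and 8.53, 10.1 and 12.8 TPM with rSLURP1. The groups did not overlap, but the rSLURP1 libraries were scattered, and the log2 fold change of -0.64 (SE 0.14, limma adjusted p = 0.00418) lost its call with median-ratio scaling (-0.31, adjusted p = 0.102).

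The remaining sterol enzymes were less certain. Lss, which closes squalene epoxide into lanosterol, fell from 13.5 ± 1.3 to 9.85 ± 1.6 TPM (log2 fold change -0.42, limma adjusted p = 0.0209). Its call was lost without rGST library 1 (-0.37) or 2 (-0.40) and with median-ratio scaling (-0.095). Ebp, the sterol isomerase, averaged 87.9 ± 7.0 TPM with rGST and 76.9 ± 5.8 TPM with rSLURP1 with overlapping groups, and did not pass (-0.19, limma adjusted p = 0.0558), although it did without rGST library 2 or rSLURP1 library 3 (-0.25 in each case). Stard4, a carrier of cholesterol between membranes and an SREBP-2 target, was lower under all 4 scalings. It measured 20.8, 21.3 and 17.6 TPM with rGST and 10.9, 12.03 and 11.5 TPM with rSLURP1, a log2 fold change of -0.74 (SE 0.089, limma adjusted p = 0.000237), or -0.41 with median-ratio scaling (adjusted p = 0.0055).

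**Figure D3:**
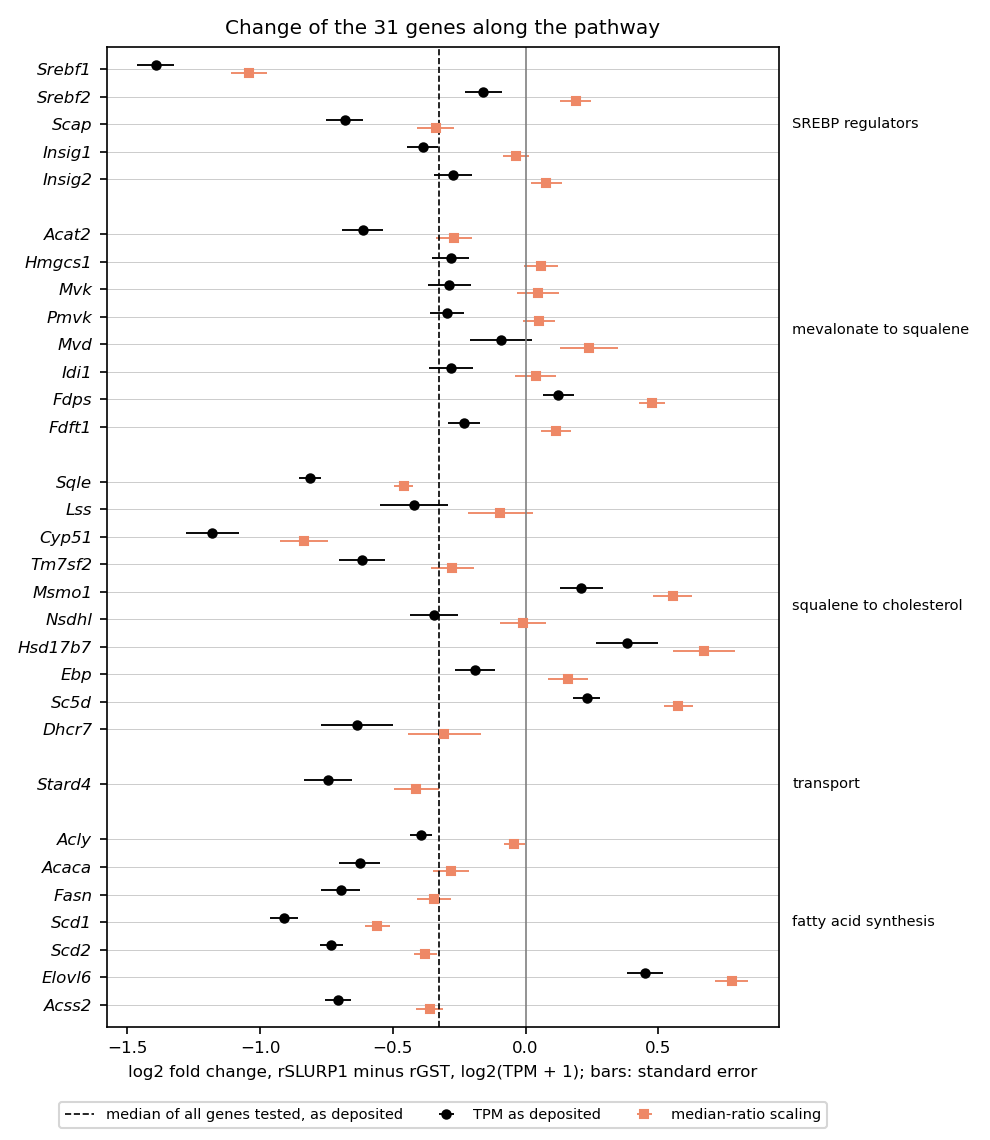
Log2 fold change (rSLURP1 over rGST, on log2(TPM + 1)) of the 31 genes in pathway order, as deposited (black circles) and with median-ratio scaling (orange squares), with standard errors as bars. The dashed line is the median of all genes tested at -0.33; Srebf1 and Cyp51 lie furthest to its left, and Elovl6, Hsd17b7, Sc5d, Msmo1 and Fdps to the right of 0.

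Of the 7 fatty acid genes, 6 were lower (85.7%, against 58.5% of all genes tested) and Elovl6 higher (14.3%, against 8.66%). Their median log2 fold change was -0.70 as deposited and -0.35 with median-ratio scaling, against -0.33 and about 0 for all genes tested. Scd1 and Scd2, the stearoyl-CoA desaturases that make oleate, were among the most abundant members. Scd1 measured 168, 160 and 176 TPM with rGST and 84.2, 91.6 and 90.6 TPM with rSLURP1, and Scd2 measured 438, 470 and 426 TPM with rGST and 261, 271 and 270 TPM with rSLURP1. The groups of both genes were well apart, with log2 fold changes of -0.91 (SE 0.052, limma adjusted p = 7.72e-06) for Scd1 and -0.73 (SE 0.044, adjusted p = 1.01e-05) for Scd2, and of -0.56 and -0.38 with median-ratio scaling. Their close relatives Scd3 and Scd4 were below 1 TPM, and how shared reads were split between them is not known.

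Fasn, the synthase that assembles palmitate, measured 138, 155 and 135 TPM with rGST and 83.2, 94.8 and 84.4 TPM with rSLURP1. Acaca, the carboxylase that makes its substrate malonyl-CoA, measured 36.8, 40.4 and 40.1 TPM with rGST and 23.9, 27.8 and 23.5 TPM with rSLURP1. In both genes every rSLURP1 library was lower, and the log2 fold changes were -0.70 (SE 0.072, limma adjusted p = 0.000114) for Fasn and -0.63 (SE 0.078, adjusted p = 0.000283) for Acaca, or -0.35 and -0.28 with median-ratio scaling. Both have long transcripts, of 10050 and 9513 bases in GENCODE M21. After the length and GC correction neither was called, at -0.13 (adjusted p = 0.103) and -0.13 (adjusted p = 0.184).

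Acss2 and Acly make acetyl-CoA, from acetate and from citrate. Acss2 measured 47.8, 49.8 and 48.7 TPM with rGST and 29.3, 28.6 and 30.5 TPM with rSLURP1, a log2 fold change of -0.71 (SE 0.049, limma adjusted p = 1.75e-05) that stayed called under all 4 scalings (-0.36 with median-ratio scaling). Acss2 shares 395 exon bases with Gss on the other strand. Acly fell from 114 ± 1.6 to 86.3 ± 2.9 TPM, a log2 fold change of -0.39 (SE 0.041, adjusted p = 0.000124), and lost its call with median-ratio scaling, at -0.042. Of the enzymes that make acetyl-CoA, the acetate enzyme lay further below its control than the citrate enzyme in these values, a difference that was not tested.

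Elovl6, which lengthens palmitate to stearate, went against the rest of its group. It measured 10.5, 10.1 and 10.5 TPM with rGST and 14.2, 14.9 and 14.4 TPM with rSLURP1. All rSLURP1 libraries were higher, at a mean of 140.1% of the control and a log2 fold change of 0.45 (SE 0.066, limma adjusted p = 0.00068), or 0.78 with median-ratio scaling (adjusted p = 5.47e-05). It had the largest positive log2 fold change of the 31 genes under each of the 4 scalings. Elovl6 (chr3:129532355-129638495, plus strand) also has a long transcript, 5951 bases, and its change was 0.86 after the length and GC correction.

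Sterol and fatty acid genes were then set side by side, as the SREBP forms divide the program. The median log2 fold change was -0.28 over the 18 sterol enzymes and -0.70 over the 7 fatty acid genes as deposited, a difference of 0.41. In limma, 12 sterol enzymes were lower and 3 higher, and 6 fatty acid genes were lower and 1 higher. The lower shares were 66.7% and 85.7%, against 58.5% of all genes tested. With median-ratio scaling, 4 sterol enzymes were lower and 4 higher, while 5 fatty acid genes were lower and 1 higher. The difference of medians was then 0.39, and the lower shares were 22.2% and 71.4%, against 25.2% of all genes tested. The summed TPM of the sterol enzymes was 852 to 874 with rGST and 646 to 703 with rSLURP1, and that of the fatty acid genes 951 to 997 with rGST and 585 to 615 with rSLURP1. The ratio of these sums within a library was 0.876 to 0.896 with rGST and 1.105 to 1.142 with rSLURP1, without overlap. Abundant genes weigh most in such sums, which does not hold for the medians. With rGST, Scd2 averaged 445 TPM and Scd1 168 TPM among the fatty acid genes, and Sqle 223 TPM among the sterol enzymes.

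The gap was smaller once transcript length and GC content were corrected for. The longest transcripts had a median length of 2998 bases for the sterol enzymes, 5455 bases for the fatty acid genes and 3152 bases for the tested genes. Across 12293 tested genes the Spearman correlation of length and log2 fold change was -0.25, and it was -0.27 across the 31 members, with all genes sharing the same libraries. After correcting for length and GC content, the medians were 0.060 for the sterol enzymes and -0.13 for the fatty acid genes, a difference of 0.19, with 3 fatty acid genes lower (Scd1, Scd2 and Acss2) and Elovl6 higher. In single libraries, the fatty acid median lay between -0.19 and -0.044 and the sterol median between 0.027 and 0.080 of the rGST mean on the log2 scale, so the order held in each rSLURP1 library. No test was made of the difference between the lists.

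**Figure D4:**
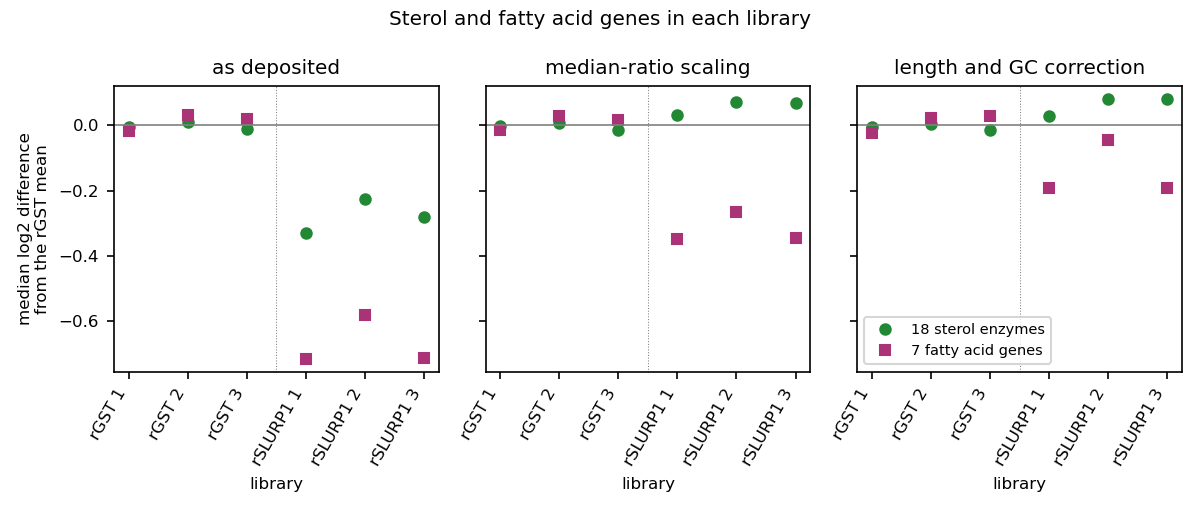
Median log2 difference from the rGST mean of the 18 sterol enzymes (circles) and 7 fatty acid genes (squares) in each of the 6 libraries, under 3 scalings. In all 3 rSLURP1 libraries the fatty acid median lies below the sterol median, and the gap is smallest after the length and GC correction, between 0.12 and 0.27.

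Pairs of genes at neighbouring steps give ratios of deposited TPM that a factor applied to a whole library, such as median-ratio scaling, leaves as they are. The pairs were chosen after their values were seen, and 9 were compared by an exact two-sided permutation test, which with 3 libraries against 3 cannot give a p below 0.1. In 8 pairs the groups did not overlap, so that the exact p was this smallest value of 0.1, or 0.113 when adjusted over the 9 pairs. As the pairs were picked with their values known, neither these p nor the count of 8 is evidence of a difference. The ratios are given as description only. Cyp51 over Msmo1, which act in the same demethylation sequence, gave 1.63 to 2.29 with rGST and 0.704 to 0.788 with rSLURP1. Elovl6 over Fasn, which lengthen and build palmitate, gave 0.065 to 0.078 with rGST and 0.157 to 0.171 with rSLURP1. The ratio of Sqle to Fdft1, which use and make squalene, was 4.87 to 4.97 with rGST and 3.03 to 3.50 with rSLURP1, and that of Fdps to Fdft1 was 2.63 to 2.81 and 3.19 to 3.71.

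Srebf1 over Scap was 4.80 to 5.65 with rGST and 3.11 to 3.47 with rSLURP1. Scd2 over Scd1 was 2.43 to 2.94 and 2.95 to 3.10, and Insig2 over Insig1 was 1.16 to 1.25 and 1.29 to 1.35. Sqle over Lss overlapped between the groups, at 15.3 to 18.03 and 11.6 to 15.7 (exact permutation p = 0.2).

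Genes around the pathway were described by 8 further lists, of which 77 of 79 genes were tested. Of all genes tested, 58.5% were lower and 8.66% higher as deposited, and 25.2% and 26.0% with median-ratio scaling. Whether the counts of a list differ from these shares was not tested. LXR receptors sense oxysterols and switch on genes of cholesterol export as well as Srebf1, and this list held the largest decreases. Of its 6 genes, Nr1h2, Abca1 and Mylip were lower, both as deposited and with median-ratio scaling, and Abcg1 is set aside below. Abca1, the cholesterol exporter, measured 215, 213 and 214 TPM with rGST and 44.8, 45.4 and 50.6 TPM with rSLURP1. Mylip, which degrades lipoprotein receptors, measured 80.3, 83.4 and 85.4 TPM with rGST and 16.3, 17.3 and 17.0 TPM with rSLURP1. Both were tightly grouped within each treatment, with log2 fold changes of -2.17 (SE 0.053, limma adjusted p = 2.3e-07) and -2.23 (SE 0.051, adjusted p = 1.75e-07), larger in size than that of Srebf1, and of -1.82 and -1.89 with median-ratio scaling. Abcg1, another exporter, measured 1.03, 1.36 and 1.6 TPM with rGST and 0.12, 0.13 and 0.06 TPM with rSLURP1. It passed the filter only through the rGST libraries and so had to differ, and its call is not counted as a result. Lpcat3, the remaining target in the list, is also named after its values were seen. Its groups overlapped and it did not pass (76.9 to 68.4 TPM, -0.16, limma adjusted p = 0.122). With median-ratio scaling it stood at 0.19 with no call. The LXR genes themselves, named here after their values were seen, went apart. Nr1h2 was lower (67.6 to 41.1 TPM, -0.70, adjusted p = 9.33e-05) and Nr1h3, with 28.5 TPM under rGST and 34.2 TPM under rSLURP1, did not pass as deposited (0.26, adjusted p = 0.0653) but did without rGST library 3 (0.38) and was higher with median-ratio scaling (0.60, adjusted p = 0.00236).

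Of 10 genes for SREBP cleavage and sterol-regulated degradation, 8 were lower as deposited (median -0.33), and 2 lower and 2 higher with median-ratio scaling. The lower shares were 80.0% and 20.0%, against 58.5% and 25.2% of all genes tested. Mbtps1, the first protease to cut SREBP, measured 160, 159 and 156 TPM with rGST and 86.2, 91.1 and 89.2 TPM with rSLURP1. It was lower in every rSLURP1 library (log2 fold change -0.83, SE 0.039, limma adjusted p = 3.2e-06), also with median-ratio scaling (-0.48, adjusted p = 2.49e-05), as was the ubiquitin ligase Rnf139 (62.3 to 41.1 TPM, -0.59, adjusted p = 3.28e-05). Mbtps2, the protease that cuts next, is named after its values were seen, with 36.1 TPM under rGST and 32.2 TPM under rSLURP1, and did not pass (-0.16, adjusted p = 0.062), though it did without rSLURP1 library 1 (-0.21), and its direction turned with median-ratio scaling (0.18).

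The list of other sterol enzymes and their electron donors had 6 of 7 genes lower, and 3 with median-ratio scaling. The lower shares were 85.7% and 42.9%, against 58.5% and 25.2% of all genes tested. Por, which hands electrons to Cyp51 and Sqle, fell from 292 to 182 TPM (-0.68, limma adjusted p = 7.51e-06), and the cytochrome b5 reductase Cyb5r3 from 228 to 147 TPM (-0.63, adjusted p = 2.77e-05). Of 10 isoprenoid genes, 5 were lower, among them the prenyltransferase subunit Fnta (99.9 to 64.3 TPM, -0.63, adjusted p = 0.000119) and the coenzyme Q enzyme Coq2 (26.8 to 17.0 TPM, -0.63, adjusted p = 0.000472), and with median-ratio scaling 3 were lower and 3 higher. Of 11 genes of sterol uptake, trafficking and storage, 5 were lower, and those with the smallest p were the lysosomal lipase Lipa (96.8 to 60.01 TPM, -0.68, adjusted p = 3.34e-05) and the lysosomal sterol carrier Npc2 (203 to 161 TPM, -0.33, adjusted p = 0.000181). Npc2 turned its sign with median-ratio scaling (0.019, no call), where 1 gene of the list was lower and 4 higher. As deposited, the lower shares of the isoprenoid and uptake lists were 50.0% and 45.5%, against 58.5% of all genes tested.

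Of 17 tested genes for elongation, desaturation and lipid assembly, 7 were lower and 7 higher, with a median of 0.013, while with median-ratio scaling 5 were lower and 11 higher, with a median of 0.36. In this list, Thrsp and Mlxipl, at or near 0, were not tested. Fads2, a desaturase of polyunsaturated fatty acids, measured 66.6, 64.0 and 60.9 TPM with rGST and 27.7, 36.3 and 29.1 TPM with rSLURP1. Like Scd1 it was lower in every rSLURP1 library (log2 fold change -1.03, SE 0.098, limma adjusted p = 7.92e-05, and -0.68 with median-ratio scaling). Of 10 genes of fatty acid oxidation, 4 were lower and 3 higher, and with median-ratio scaling 6 were higher. Cpt1a, which admits long-chain fatty acids to mitochondria and is inhibited by malonyl-CoA, the product of Acaca, measured 36.2, 36.1 and 38.8 TPM with rGST and 74.9, 77.8 and 81.2 TPM with rSLURP1. The rSLURP1 libraries lay far above the rGST libraries, with a log2 fold change of 1.06 (SE 0.053, limma adjusted p = 4.26e-06) and 1.40 with median-ratio scaling.

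Of 6 genes for the supply of NADPH and citrate, 2 were higher and 1 lower as deposited, and all 6 were higher with median-ratio scaling. Of all genes tested, 8.66% were higher as deposited and 26.0% with median-ratio scaling. Idh1, a cytosolic source of NADPH, rose from 124 to 174 TPM (0.49, limma adjusted p = 0.000353). Slc25a1, the citrate carrier, fell from 115 to 101 TPM (-0.19, adjusted p = 0.00235), a direction that turned with median-ratio scaling (0.16). Across all 8 lists, 40 of 77 tested genes were lower and 13 higher as deposited, and 18 lower and 34 higher with median-ratio scaling. These counts hold Abcg1 among the lower genes. As shares they were 51.9%, 16.9%, 23.4% and 44.2%, against 58.5%, 8.66%, 25.2% and 26.0% of all genes tested.

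**Figure D5:**
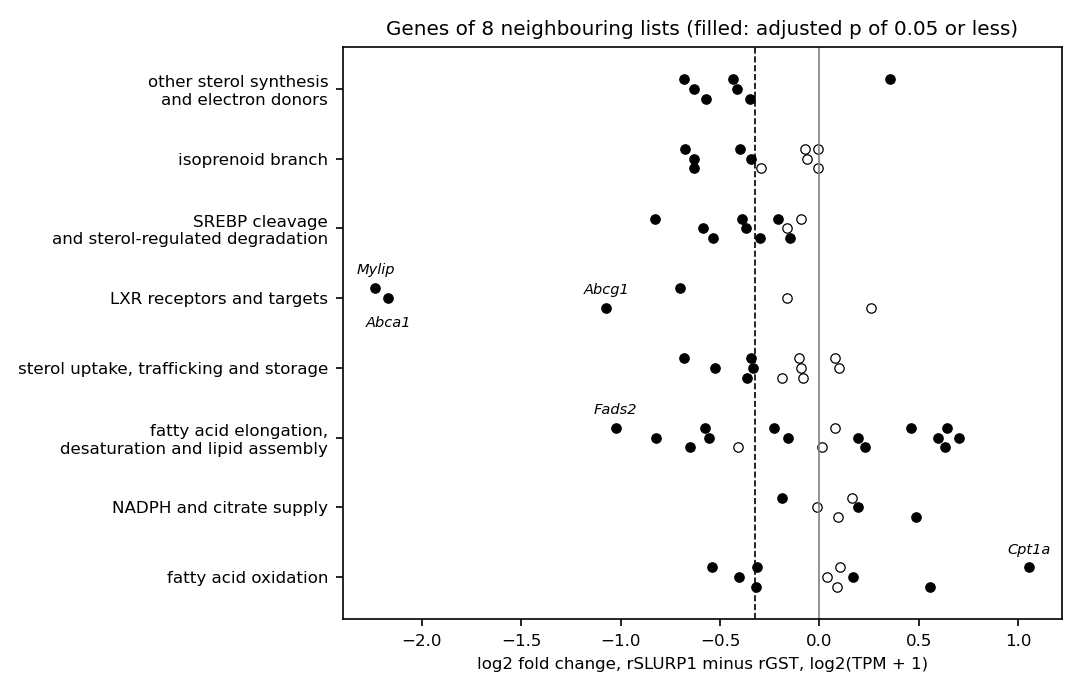
Log2 fold change as deposited of the 77 tested genes in 8 lists around the pathway, filled where limma's adjusted p was 0.05 or less, with the median of all genes tested (-0.33) as a dashed line. Mylip and Abca1 lie beyond -2 and Cpt1a lies above 1.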

How the data were processed

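RNAseq of D2A1 spheroids was analysed in 6 libraries (3 rSLURP1, 3 rGST), grouped by the sample labels. The submitters' processing notes name bcl2fastq 2.20, cutadapt 1.18, STAR 2.5.2b, RSEM 1.3.3 and DESeq2, and the mm10 genome. The authors deposited TPM per gene, a length-corrected abundance scaled to the same total in every library, with 1 column per library. Library preparation is TruSeq mRNA per the labels and Smart-seq2 per the study's methods, and the strand setting is not given in the sources used here. Read depth is unknown, so precision is given only by the spread of 3 libraries per treatment.

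From the TPM, log2(TPM + 1) of 12301 genes with at least 1 TPM in at least 3 libraries was tested with limma 3.58.1 (R 4.3.3; eBayes with trend, Benjamini-Hochberg adjustment), with thresholds of 0.05 and 2-fold. Replicate numbers did not pair libraries, and no block was used. Lengths and GC content came from GENCODE M21 (99.93% of tested genes, loess span 0.3), and promoters from RefSeq. Of 33 starts, 27 were followed by bases found in a GENCODE transcript of the same gene. Of the promoters printed, this held for Fasn only. The scripts were tested on simulated data. Tables and figures used pandas 2.3.3, scipy 1.17.1 and matplotlib 3.10.9 in Python 3.11.15.

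The members and lists were chosen with earlier results of these data known. Named were all members and, of each further list, the genes called at 2-fold or more (at most 4, by smallest p), or else the 2 with the smallest p, and exceptions are marked. Alternatives were quantile and median-ratio scaling, a replicate block, each library left out, no mitochondrial genes, eBayes without trend, a pseudocount of 0.1, and the low-value filter dropped or required in all 6 libraries. The length and GC correction and both scalings with a block were added after seeing the data.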

Additional observations from a re-analysis of the deposited data

How the results depend on the processing

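Scaling moved the counts most. Lower members numbered 23 as deposited, 12 under median-ratio scaling (also with the replicate block), 13 under quantile normalization and 10 under the correction for length and GC (also with the block), while the other settings kept 21 to 24. Higher members numbered 4 as deposited, 2 with no filter, 7 after correcting for length and GC, block or not, and 2 to 4 with 1 library left out, the lowest count without rGST 2, rSLURP1 1 or rSLURP1 2. Members called at 2-fold or more in limma numbered 2 as deposited, 1 under median-ratio scaling (block or not) or quantile normalization, and 0 after correcting for length and GC (block or not), where the largest change was that of Srebf1, -0.92, so that the count is 0 at an unadjusted p as well. The difference between sterol and fatty acid medians was 0.41 as deposited, 0.45 under quantile normalization, 0.19 after correcting for length and GC (block or not) and 0.33 to 0.46 with 1 library left out. The replicate block on the deposited values gave 24 lower and 4 higher members, 2 at 2-fold and the same difference of 0.41, with Srebf2, Fdps and Mbtps2 called and Msmo1 not. After correcting for length and GC, the block ended the call of Scap, and Fasn was called with it and not without it. Same-numbered libraries did not deviate together (correlations of -0.056, -0.034 and -0.061), so the numbers were not taken as pairs.

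Log2 fold changes of 15 named genes turned from negative to positive, with Lpcat3 not counted here. Under median-ratio scaling, and equally with the replicate block added, these were Srebf2 (0.19), Insig2 (0.077), Hmgcs1 (0.060), Mvk (0.047), Pmvk (0.051), Mvd (0.24), Idi1 (0.037), Fdft1 (0.11), Ebp (0.16), Npc2 (0.019), Mbtps2 (0.18) and Slc25a1 (0.16). Under quantile normalization they were Srebf2 (0.14), Hmgcs1 (0.094), Mvk (0.11), Pmvk (0.024), Mvd (0.30), Idi1 (0.13), Fdft1 (0.11), Nsdhl (0.053), Ebp (0.089), Mbtps2 (0.19) and Slc25a1 (0.065). After correcting for length and GC, and equally with the replicate block added, they were Srebf2 (0.34), Insig2 (0.073), Hmgcs1 (0.085), Mvk (0.053), Mvd (0.17), Idi1 (0.068), Fdft1 (0.19), Lss (0.051), Ebp (0.097), Acly (0.065), Npc2 (0.063), Mbtps2 (0.23) and Slc25a1 (0.056). Of 829 values under the alternatives, 704 stayed on the same side of the threshold with the same sign, 61 turned their sign, 43 lost a call and 21 gained one. The cause of these shifts was not tested. Counting error cannot be set beside these values, as TPM carries no depth.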
